A study of Mus musculus with 2 samples.

Results

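Levels of 10 heat shock chaperone genes, Hspa1a, Hspa1b, Hsph1, Hsp90aa1, Dnajb1, Bag3, Hspa8, Hsp90ab1, Cryab and Hspb1, were followed across the cell classes of the mouse inner ear. They were taken by symbol from the 32285 genes of both matrices, and each symbol was found in both. The data are single-cell RNA sequencing of the dissociated cochlea, labelled as sensory epithelium, with mRNA molecules counted by unique molecular identifiers (UMIs). The animals were wild-type CBA/CaJ mice aged 4 to 6 weeks. In the AAV-Isl1 plus noise group (AAV-Isl1 for short), ears received an adeno-associated virus carrying Isl1, which encodes a LIM homeodomain transcription factor, and noise of 105 dB between 1 and 20 kHz followed for 2 h. The noise-only group consisted of the opposite ears of the same mice, which received no virus. Tissue of both groups was taken 2 days later and dissociated with 0.25% trypsin for 15 min at 37 C. Each group pooled 5 mice into 1 library, so no difference between the groups has a replicate check, and no test between them was possible. The serotype of the virus and the promoter that drives Isl1 are not given in the sources used here.

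Heat shock chaperones bind unfolded proteins and keep them from aggregating. The Hsp70 proteins fold their clients in cycles driven by ATP, J-domain proteins such as Dnajb1 deliver clients to them, and Hsph1 and Bag3 exchange their nucleotide. Hsp90 proteins complete the folding of kinases, receptors and other signalling proteins. Small heat shock proteins hold unfolded clients without ATP. Heat, oxidants and proteotoxic stress release heat shock factor 1 (Hsf1), which binds GAA units in the promoters of the inducible genes. In the cochlea, heat and noise are known inducers of Hsp70. For this report Hspa1a, Hspa1b, Hsph1, Hsp90aa1, Dnajb1 and Bag3 were grouped as inducible genes. Hspa8 and Hsp90ab1 were grouped as their cognates, which most cells express without stress. Cryab (alpha B-crystallin) and Hspb1 (the mouse form of human HSP27) were set against them as the constitutive small heat shock genes.

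Filtering kept 21769 AAV-Isl1 cells (median 1084 UMIs) and 18657 noise-only cells (median 1046 UMIs). Levels are given as UMIs per 1000000 UMIs of a class (CPM). The AAV-Isl1 library held 24209 barcodes and the noise-only library 21068, for about 1600 cells loaded, so kept barcodes may not each be a whole cell. They shared 145 barcodes. Isl1 had 113 CPM in AAV-Isl1 cells and 79.3 CPM in noise-only cells. Whether 3′ counts of the annotated gene include RNA of the vector is not given in the sources used here. Of 19 classes compared, 13 had enough markers to be named after a cell type, written with "-like", and 6 are called by a leading gene. Hair cell-like cells made up 1.51% of AAV-Isl1 cells and 0.498% of noise-only cells, and cells like non-sensory epithelium of the cochlea 3.38% in AAV-Isl1 and 5.02% in noise only. Most cells were thus of other types than the labelled sensory epithelium. Hair cell-like cells fell below the limit of 100 cells in the noise-only library (93 cells) and were added after these numbers were seen. The median UMIs per cell were lower in the AAV-Isl1 library in 19 of 19 classes.

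Promoter sequences show how close the members are to each other and whether GAA units stand before their starts. RefSeq windows on GRCm38.p6 were at hand for Hspa1a, Hspa1b, Hsph1, Dnajb1, Bag3 and Hspb1. A facing pair of units, GAANNTTC or TTCNNGAA, which reads as itself on either strand, was searched in the 250 bases before each start. It was found in 4 of these 6 genes, against 14.5% of all 27025 genes with a window. The chain of 3 units was in none of the 6, against 0.514% of all genes. Hspa1a and Hspa1b had identical letters at 247 of the 250 positions (98.8%) and 1 pair each, beginning 104 bases before the start. Hspb1 held 2 pairs, at 97 and 117 bases, Hsph1 held 1, and no pair was found in the windows of Dnajb1 and Bag3. Stretches of 120 bases are given for 4 of these genes, 5′ to 3′ on the strand of the gene, to set the identical Hsp70 pair beside the promoter with 2 pairs and one with none. Capitals mark the paired units.
Hspa1a, chr17:34972198-34972317, minus strand: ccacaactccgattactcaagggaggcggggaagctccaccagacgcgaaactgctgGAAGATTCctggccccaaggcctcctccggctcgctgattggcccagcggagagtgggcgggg
Hspa1b, chr17:34959280-34959399, minus strand: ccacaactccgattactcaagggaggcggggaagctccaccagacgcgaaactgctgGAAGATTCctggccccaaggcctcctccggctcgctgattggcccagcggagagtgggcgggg
Hspb1, chr5:135887755-135887874, plus strand: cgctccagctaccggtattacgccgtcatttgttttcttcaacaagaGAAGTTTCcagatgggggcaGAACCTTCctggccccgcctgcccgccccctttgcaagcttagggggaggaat
Dnajb1, chr8:83608055-83608174, plus strand: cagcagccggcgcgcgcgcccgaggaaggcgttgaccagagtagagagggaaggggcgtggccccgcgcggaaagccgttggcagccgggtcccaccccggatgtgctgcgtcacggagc

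Hspa1a and Hspa1b encode the stress-inducible Hsp70. Both are genes of 1 exon on the minus strand of chromosome 17 (GRCm38, GENCODE vM21), Hspa1a (ENSMUSG00000091971) from 34969190 to 34972156 and Hspa1b (ENSMUSG00000090877) from 34956436 to 34959238. Their transcripts share 58.8% of the 50-base words of Hspa1a but none in the last 500 bases, the end that 3′ counting reads. Reads from the shared part could still be divided between them or lost. A UMI counts 1 molecule whatever the length of the transcript, so CPM levels of different genes can be set side by side. All intervals in the text are 95% intervals that cover counting error only.

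The AAV-Isl1 library had its highest Hspa1a level in the Vmo1 cluster, an unnamed cluster led by Vmo1, and the noise-only library in the cochlear non-sensory epithelium. The Vmo1 cluster had 693 CPM in AAV-Isl1 and 668 CPM in noise only. Cochlear non-sensory epithelium-like cells had 613 CPM in AAV-Isl1 and 721 CPM in noise only, and pericyte or smooth muscle-like cells had 652 CPM in AAV-Isl1 and 610 CPM in noise only. These 3 classes led in both libraries, and their intervals overlapped in part. The Slc6a13 cluster had 452 CPM in AAV-Isl1 and 472 CPM in noise only, endothelial-like cells 451 CPM in AAV-Isl1 and 401 CPM in noise only, and the Fxyd2 cluster 350 CPM in AAV-Isl1 and 461 CPM in noise only. Neuron-like cells stood low in both libraries, with 43.8 CPM (AAV-Isl1) and 40.1 CPM (noise only). The lowest level was in T or NK cell-like cells, 27.4 CPM in AAV-Isl1 and 7.88 CPM in noise only, the second from a single UMI.

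Hspa1b had nearly the same order at a lower level. The Vmo1 cluster had 301 CPM in AAV-Isl1 and 341 CPM in noise only, the cochlear non-sensory epithelium 299 CPM in AAV-Isl1 and 402 CPM in noise only, and the Slc6a13 cluster 192 CPM in AAV-Isl1 and 297 CPM in noise only. Neuron-like cells had 16.8 CPM in AAV-Isl1 and 15.8 CPM in noise only. Over the 38 points made by 19 classes and both libraries, the log2 levels of the pair correlated with r = 0.94 (Pearson, log2(CPM + 10)). This r is a description without a p-value, since the 38 points are not independent. Each class gives a point in both libraries, and points of a library share its depth and its free RNA.

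Dnajb1, the J-domain protein that partners the inducible Hsp70, lies on chromosome 8 from 83608193 to 83612653 (plus strand). It was highest in the Vmo1 cluster (635 CPM in AAV-Isl1, 531 CPM in noise only), the Slc6a13 cluster (567 CPM in AAV-Isl1 and 428 CPM in noise only) and cochlear non-sensory epithelium-like cells (545 CPM in AAV-Isl1 and 602 CPM in noise only). It was low in stria intermediate cell-like cells, at 42.1 CPM in AAV-Isl1 and 39.1 CPM in noise only, and in neuron-like cells, at 42.7 CPM in AAV-Isl1 and 44.7 CPM in noise only. Its level went with that of Hspa1a (r = 0.79) and Hspa1b (r = 0.82) over the same 38 points.

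Bag3, which links Hsp70 to selective autophagy, lies on chromosome 7 from 128523616 to 128546981 (plus strand) and was the scarcest member. It had 55.5 CPM in AAV-Isl1 neuron-like cells and 45.1 CPM in noise-only ones, and the Fxyd2 cluster had 48.8 CPM in AAV-Isl1 and 62.9 CPM in noise only. Neighbouring classes in the order of Bag3 levels had overlapping intervals in every case in both libraries. In hair cell-like cells it gave 1 UMI in AAV-Isl1 and 2 UMIs in noise only, too few for a ratio.

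Hsp90aa1, the inducible cytosolic Hsp90, lies on chromosome 12 from 110690605 to 110702728 (minus strand) and had another order. Hair cell-like cells had 2839 CPM in AAV-Isl1 and 2958 CPM in noise only, and neuron-like cells had 2830 CPM in AAV-Isl1 and 2827 CPM in noise only. The next class, cochlear non-sensory epithelium-like cells, had 1080 CPM in AAV-Isl1 and 1027 CPM in noise only. Stria intermediate cell-like cells had the least, 349 CPM in AAV-Isl1 and 363 CPM in noise only. Hair cell-like and neuron-like cells did not differ beyond counting error in either library, and both stood far above every other class. Neuron-like cells held 61.9% of all Hsp90aa1 UMIs of the AAV-Isl1 library and 58.3% of those of the noise-only library, while they held 27.1% of all UMIs in AAV-Isl1 and 23.0% in noise only.

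Hsph1, an Hsp110 protein on chromosome 5 from 149614287 to 149636376 (minus strand), was likewise led by hair cell-like cells, with 343 CPM in AAV-Isl1 and 386 CPM in noise only. Neuron-like cells had 157 CPM in AAV-Isl1 and 161 CPM in noise only, and the Fxyd2 cluster had 86.4 CPM in AAV-Isl1 and 65.1 CPM in noise only. The cognate Hsp90ab1 (chromosome 17, 45567775 to 45573271, minus strand) had 2665 CPM in AAV-Isl1 hair cell-like cells and 2631 CPM in noise-only ones, and neuron-like cells had 2149 CPM in AAV-Isl1 and 2006 CPM in noise only. Its lowest level was in erythroid-like cells, at 738 CPM in AAV-Isl1 and 800 CPM in noise only. The spread of Hsp90ab1 over classes was therefore far narrower than that of the inducible Hsp70 pair.

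Hspa8, the cognate Hsp70 that also uncoats clathrin vesicles, lies on chromosome 9 from 40800984 to 40810087 (plus strand). It had 1107 CPM in AAV-Isl1 neuron-like cells and 1189 CPM in noise-only ones. Macrophage-like cells had 1005 CPM in AAV-Isl1 and 1117 CPM in noise only, hair cell-like cells 754 CPM in AAV-Isl1 and 713 CPM in noise only, and erythroid-like cells 363 CPM in AAV-Isl1 and 342 CPM in noise only. Hspa8, Hsp90ab1, Hsp90aa1 and Hsph1 varied together over the 38 points. The r was 0.84 between Hsph1 and Hsp90aa1, 0.81 between Hsp90aa1 and Hsp90ab1, and 0.63 between Hspa8 and Hsp90ab1. Between Hspa1b and Hsp90aa1, both inducible, r was -0.08.

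**Figure D1:**
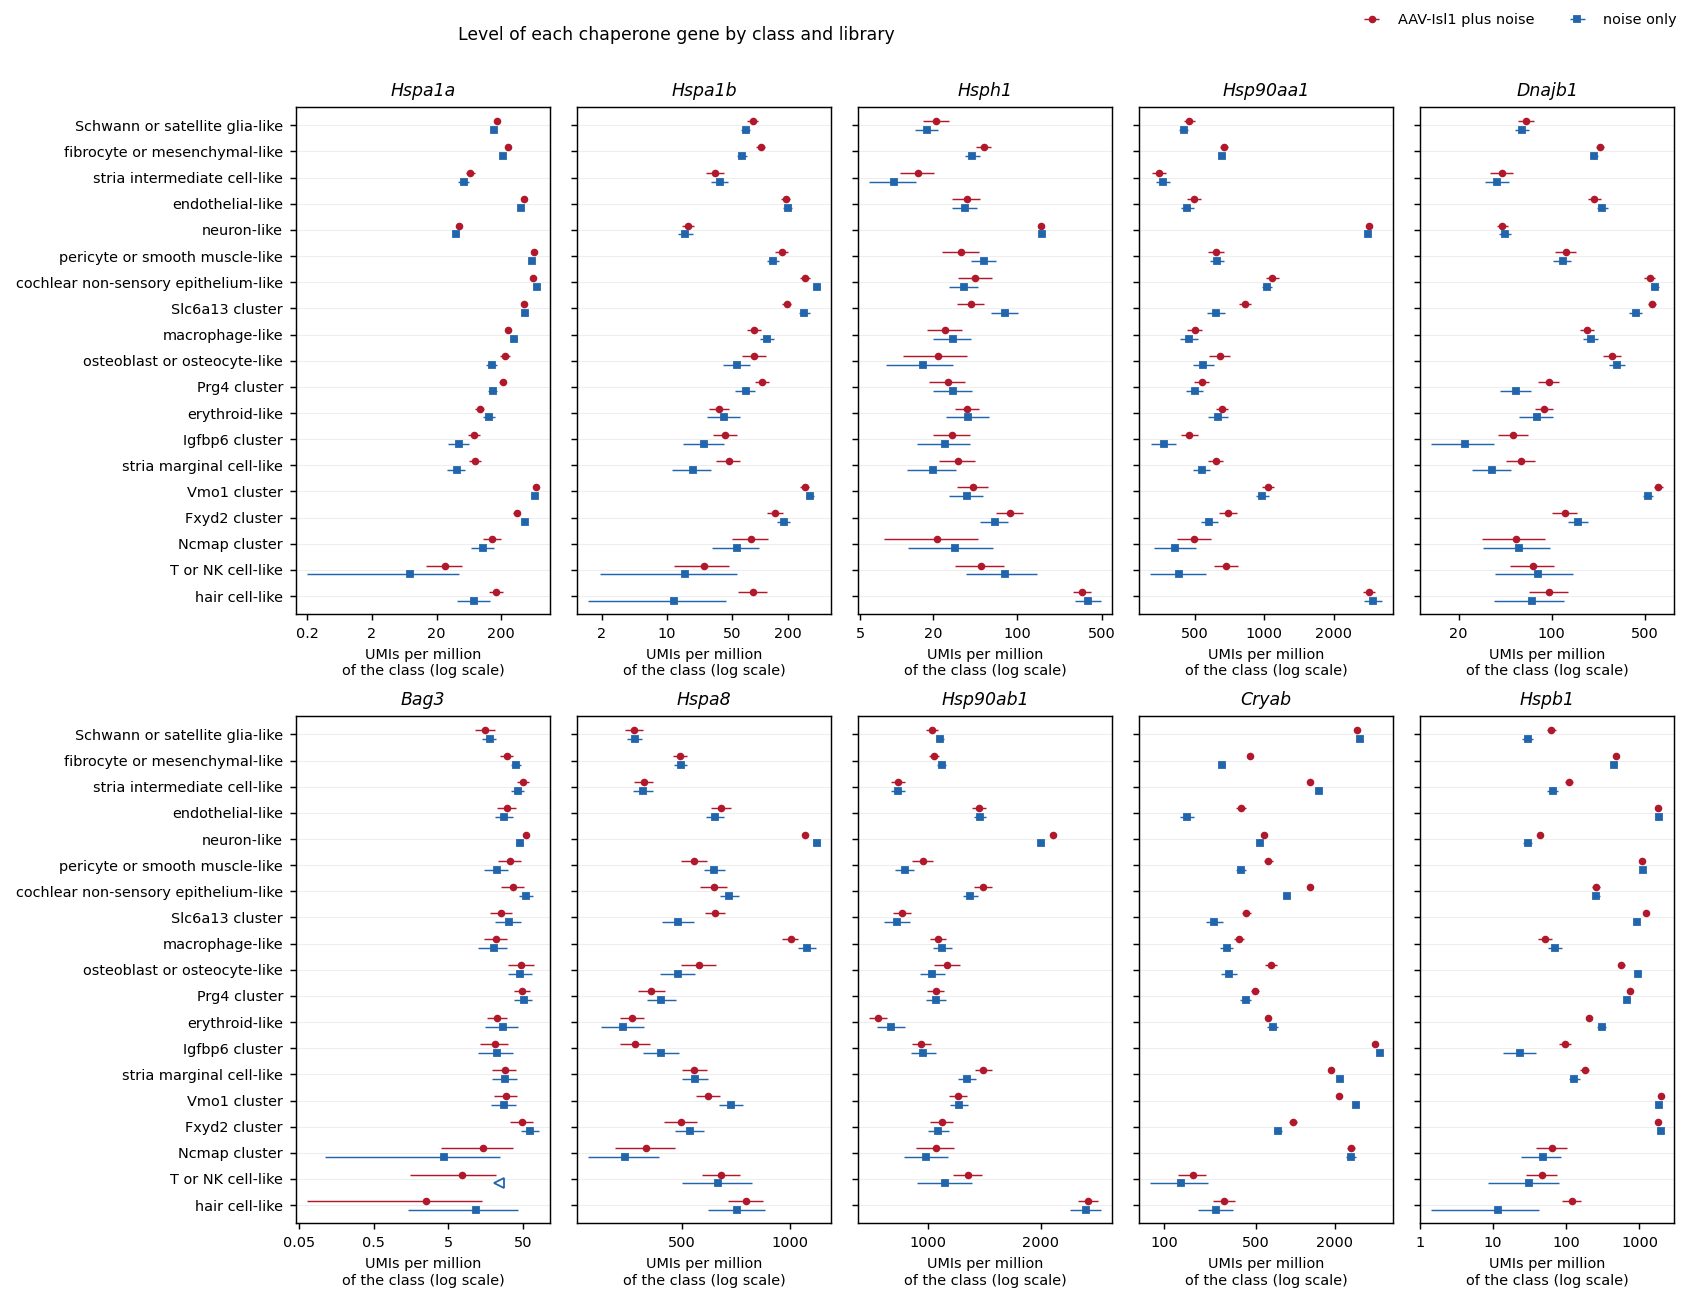
CPM (log axis) for each of the 10 genes, 1 row per class, with AAV-Isl1 above noise only and bars for the 95% Poisson interval of the count. Hspa1a, Hspa1b and Dnajb1 are high in the cochlear epithelium, Vmo1 and Slc6a13 rows, Hspb1 in the endothelial, Vmo1 and Fxyd2 rows, Hsp90aa1, Hsph1 and Hsp90ab1 in neuron-like and hair cell-like rows, and the open triangle marks the limit that a count of 0 allows for Bag3.

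Cryab, a small heat shock protein of lens, glia and muscle, lies on chromosome 9 from 50751325 to 50756636 (plus strand). Its 5′ end overlaps Hspb2 on the other strand. The Igfbp6 cluster had the highest Cryab level, 4076 CPM in AAV-Isl1 and 4433 CPM in noise only. Schwann or satellite glia-like cells had 2976 CPM in AAV-Isl1 and 3129 CPM in noise only, the Ncmap cluster 2657 CPM in AAV-Isl1 and 2673 CPM in noise only, and the Vmo1 cluster 2171 CPM in AAV-Isl1 and 2910 CPM in noise only. Both cell types of the stria vascularis followed, marginal cell-like cells with 1882 CPM in AAV-Isl1 and 2184 CPM in noise only and intermediate cell-like cells with 1309 CPM in AAV-Isl1 and 1515 CPM in noise only. T or NK cell-like cells had the least, 165 CPM in AAV-Isl1 and 134 CPM in noise only. Cochlear non-sensory epithelium-like cells had 1295 CPM in AAV-Isl1, close to the intermediate cell-like cells, and 868 CPM in noise only. Cryab was therefore highest in glia, stria and the Igfbp6, Ncmap and Vmo1 clusters. Hair cell-like cells were near the bottom at 287 CPM in AAV-Isl1 and 249 CPM in noise only.

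Hspb1, which also guards actin filaments, lies on chromosome 5 from 135887919 to 135889563 (plus strand) and had a different map. The Vmo1 cluster had 1939 CPM in AAV-Isl1 and 1861 CPM in noise only. Endothelial-like cells had 1800 CPM in AAV-Isl1 and 1862 CPM in noise only, the Fxyd2 cluster 1778 CPM in AAV-Isl1 and 1989 CPM in noise only, and pericyte or smooth muscle-like cells 1078 CPM in AAV-Isl1 and 1127 CPM in noise only. Neuron-like cells had 44.4 CPM in AAV-Isl1 and 29.8 CPM in noise only. Of the 19 classes, the Vmo1 cluster alone had over 1000 CPM of both small heat shock genes in both libraries. For each Hspb1 UMI, endothelial-like cells had 0.214 Cryab UMIs in AAV-Isl1 and 0.0803 in noise only, and Schwann or satellite glia-like cells had 47.3 in AAV-Isl1 and 105 in noise only.

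The 2 small heat shock genes thus did not share a pattern, with r = -0.18 between them. Hspb1 went instead with Hspa1a (r = 0.75), Hspa1b (r = 0.73) and Dnajb1 (r = 0.66), although it was set down as constitutive. Of 10785 genes with enough UMIs, those nearest to Hspa1b over the 38 points were Hspa1a (r = 0.943), Jun (0.841), Dnajb1 (0.821), Ier2 (0.803) and Fosb (0.784), and Hspb1 had rank 16. Nearest to Cryab were Paqr6 (r = 0.943), Rtkn (0.901), Sox10 (0.893), Chdh (0.879) and Ptprf (0.878). Sox10 is a transcription factor of glia and melanocytes and one of the markers that named the glial class.

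Summed over their genes, the small heat shock pair varied more between classes than the inducible genes did. In hair cell-like cells the inducible sum was 3533 CPM in AAV-Isl1 and 3517 CPM in noise only, and in neuron-like cells 3146 CPM in AAV-Isl1 and 3133 CPM in noise only. Stria intermediate cell-like cells had 557 CPM in AAV-Isl1 and 544 CPM in noise only. From the highest to the lowest class the inducible sum spanned 6.35-fold in AAV-Isl1 and 6.95-fold in noise only. The cognate sum spanned 3.10-fold in AAV-Isl1 and 2.93-fold in noise only, and Cryab plus Hspb1 19.7-fold in AAV-Isl1 and 28.8-fold in noise only. The inducible sum is weighted to Hsp90aa1, with 90.0% of its UMIs in AAV-Isl1 neuron-like cells and 90.2% in noise-only ones. Hspa1a alone spanned 25.3-fold in AAV-Isl1 and 91.5-fold in noise only, Cryab 24.7-fold and 33.1-fold, and Hspb1 43.7-fold and 167-fold. The lowest noise-only levels of Hspa1a and Hspb1 rested on 1 UMI and 2 UMIs.

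The balance between both groups also differed by class. For each UMI of the 6 inducible genes, the Igfbp6 cluster held 6.03 UMIs of Cryab and Hspb1 in AAV-Isl1 and 8.80 in noise only. Schwann or satellite glia-like cells held 3.68 in AAV-Isl1 and 4.14 in noise only, and stria marginal cell-like cells 2.40 in AAV-Isl1 and 3.41 in noise only. Neuron-like cells held 0.197 in AAV-Isl1 and 0.180 in noise only, and hair cell-like cells 0.115 in AAV-Isl1 and 0.0743 in noise only. Most inducible UMIs of both classes were of Hsp90aa1, in hair cell-like cells 80.4% in AAV-Isl1 and 84.1% in noise only. The small heat shock genes outnumbered the inducible ones in 10 of 19 classes in AAV-Isl1 and in 11 in noise only, with 9 classes in common.

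**Figure D2:**
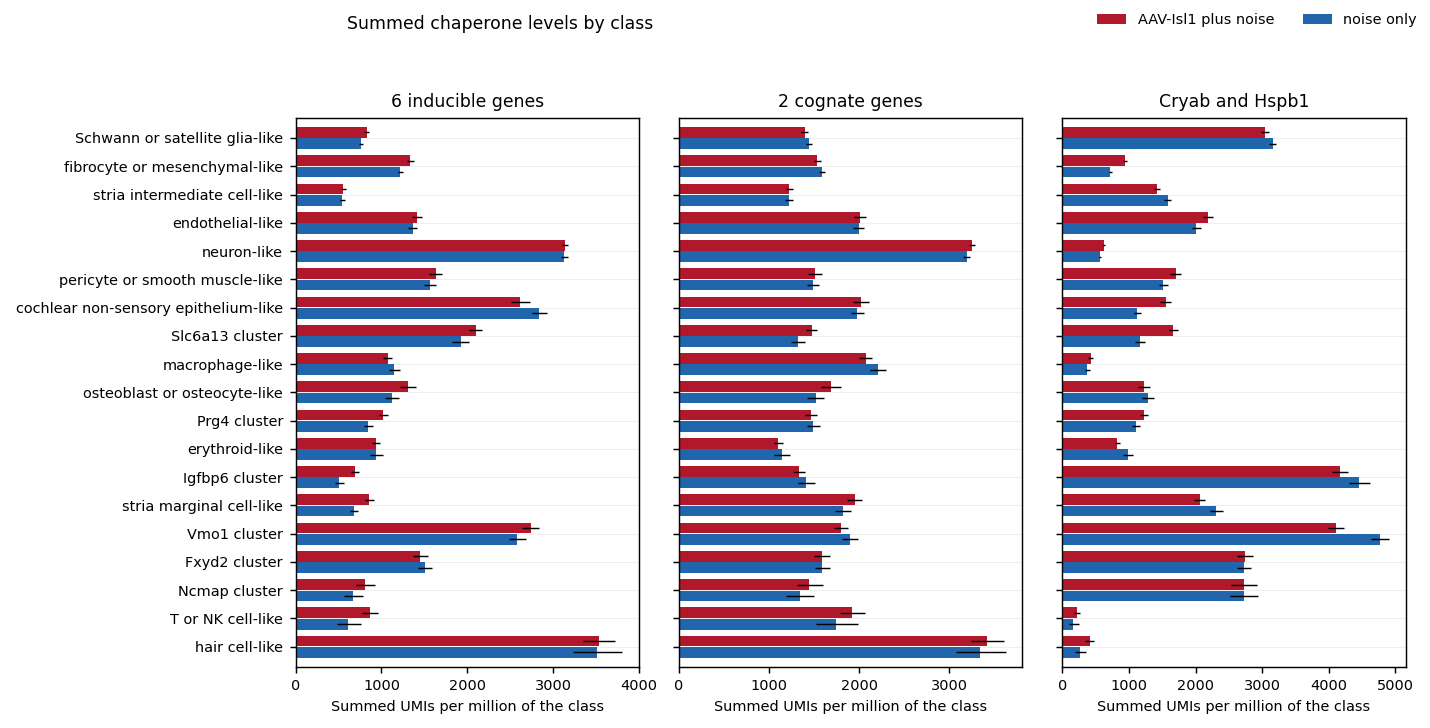
Summed CPM (linear axis from 0) for the 6 inducible genes, the 2 cognate genes and Cryab plus Hspb1, with AAV-Isl1 above noise only in each class and bars for the 95% Poisson interval. Hair cell-like and neuron-like rows are highest for the first 2 sums and among the lowest for the third, where the Igfbp6 and Vmo1 clusters lead. Most of the first sum in these 2 rows is Hsp90aa1. Without it (not drawn), neuron-like cells have 316 CPM in AAV-Isl1 and 306 CPM in noise only, and the Vmo1 cluster 1702 CPM and 1606 CPM.

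The near genes of Hspa1b include immediate early genes, which dissociation itself is known to induce, so the members were set beside a list of 17 immediate early and stress genes (Fos, Jun, Junb, Egr1 and others). Across the 19 classes of the AAV-Isl1 library the r with the summed level of that list was 0.84 for Hspa1a, 0.82 for Hspa1b, 0.79 for Dnajb1, 0.61 for Hspb1, -0.29 for Hsp90aa1, -0.33 for Hsph1 and -0.04 for Cryab. In the noise-only library it was 0.77 for Hspa1a, 0.75 for Hspa1b, 0.75 for Dnajb1, 0.65 for Hspb1, -0.34 for Hsp90aa1, -0.30 for Hsph1 and -0.24 for Cryab. For Bag3 it was 0.13 in AAV-Isl1 and 0.12 in noise only, for Hspa8 -0.02 and -0.09, and for Hsp90ab1 -0.34 and -0.42. Hspa1a, Hspa1b, Dnajb1 and Hspb1 were therefore the members that ran along with the early genes. Jun, Ier2 and Fosb, found near Hspa1b over these same classes, belong to the list. The r of Hspa1b, and of Hspa1a and Dnajb1 that vary with it, is thus no separate support for that likeness. The part of handling, noise or treatment in these levels was not tested.

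**Figure D3:**
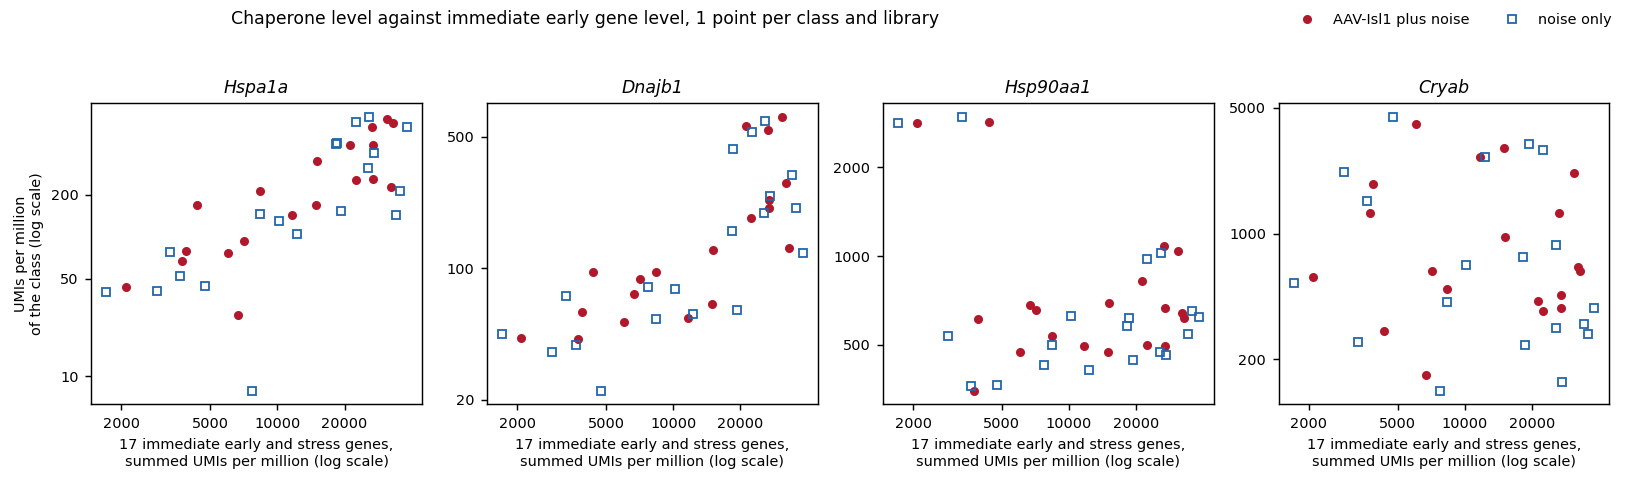
Level of 4 of the genes against the summed level of 17 immediate early and stress genes (CPM, both axes log), 1 point per class and library. Hspa1a and Dnajb1 climb with the early genes, while Hsp90aa1 and Cryab do not.

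Over all kept cells, the ratios of AAV-Isl1 over noise only were near 1. Hspa1a had 195 CPM in AAV-Isl1 and 215 CPM in noise only, a ratio of 0.906 (interval 0.877 to 0.937). Hspa1b had a ratio of 0.873, Dnajb1 of 0.979, Bag3 of 1.02, Hspa8 of 0.993 and Hsp90ab1 of 1.04. Hsp90aa1 had 1241 CPM in AAV-Isl1 and 1115 CPM in noise only, a ratio of 1.11 (1.10 to 1.13), and Hsph1 likewise stood at 1.11 (1.05 to 1.17). Cryab had 1030 CPM in AAV-Isl1 and 1150 CPM in noise only, a ratio of 0.896, and Hspb1 394 CPM in AAV-Isl1 and 427 CPM in noise only, a ratio of 0.923. A gene was called where its ratio was at least 1.5-fold in either direction from at least 50 UMIs. By that rule 0 of the 10 members were called, against 5.77% of all 15602 genes measured called higher, 2.46% called lower and 8.24% called either way. The median log2 ratio was -0.02 over the members and -0.02 over all genes.

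The pooled ratios moved with the mix of cell classes. Schwann or satellite glia-like cells, rich in Cryab, made up 18.2% of AAV-Isl1 cells and 33.4% of noise-only cells, and neuron-like cells, rich in Hsp90aa1, 6.87% in AAV-Isl1 and 4.15% in noise only. With both libraries set to the class shares of the noise-only library, the ratio was 1.05 for Hspa1a, 1.01 for Hspa1b, 1.03 for Hsp90aa1, 1.01 for Hsph1 and 1.02 for Cryab and for Hspb1. Those of Hspa1a, Hspa1b, Dnajb1, Cryab and Hspb1 thus passed from below 1 to above it. The interval of the pooled Dnajb1 ratio (0.941 to 1.02) held 1, and the ratios at the noise-only class shares have no interval. The inducible sum had a ratio of 1.06 (1.05 to 1.07), but Hsp90aa1 gave 70.1% of its UMIs in AAV-Isl1 and 66.7% in noise only. Without Hsp90aa1, the other 5 inducible genes had 529 CPM in AAV-Isl1 and 557 CPM in noise only, a ratio of 0.950 (0.931 to 0.970). The cognate sum had a ratio of 1.02, and Cryab plus Hspb1 one of 0.903 (0.892 to 0.914).

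**Figure D4:**
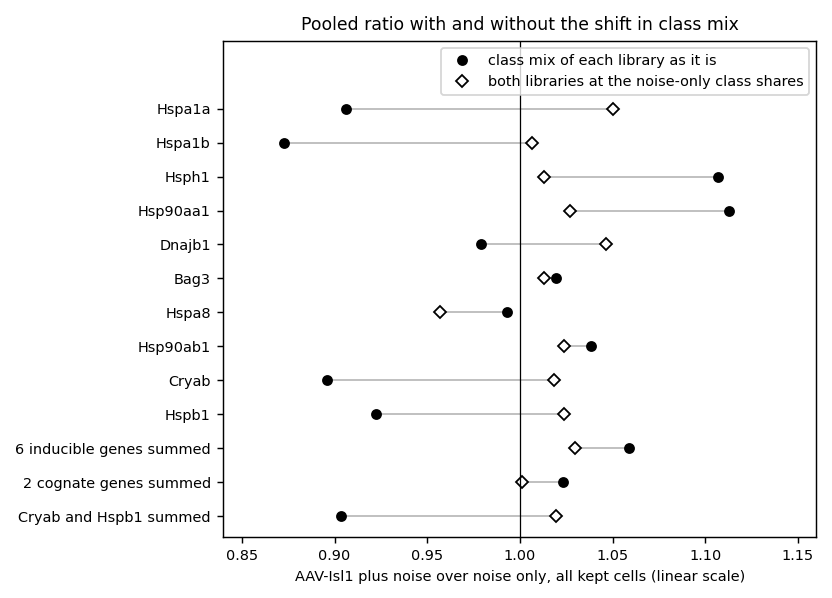
Ratio of CPM, AAV-Isl1 over noise only, over all kept cells (linear axis), with the class mix of each library as it is (filled) and with both at the noise-only class shares (open). Open points lie between 0.957 for Hspa8 and 1.05 for Hspa1a, and the 2 values of Hspa1a, Hspa1b, Dnajb1, Cryab and Hspb1 lie on opposite sides of 1. No intervals are drawn.

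Within the 19 classes, 174 of 190 pairs of a member and a class had at least 50 UMIs. Of these, 22 (12.6%) were called higher in AAV-Isl1 and 4 (2.30%) lower, against 6.3% of all pairs of a gene and a class called higher and 3.45% called lower. The cognate Hspa8 and Hsp90ab1 gave none of the calls in 38 pairs. The inducible genes gave 14 higher and 3 lower calls in 101 pairs, and Cryab and Hspb1 8 higher and 1 lower in 35. In 4 of the 26 calls the interval of the ratio held 1. The calls lay in 12 classes, and 7 classes had none, among them neuron-like and macrophage-like cells and the cochlear non-sensory epithelium.

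Stria marginal cell-like cells, the cells that secrete potassium into the endolymph, had 4 members called higher, against 6.38% of all genes in that class. Hspa1a had 86 UMIs (78.7 CPM) in AAV-Isl1 and 41 UMIs (40.9 CPM) in noise only, a ratio of 1.93 (1.31 to 2.87). Hspa1b had 50 UMIs in AAV-Isl1 and 19 UMIs in noise only, a ratio of 2.42 (1.40 to 4.34). Dnajb1 had 58.6 CPM in AAV-Isl1 and 35.9 CPM in noise only, a ratio of 1.63 (1.07 to 2.53), and Hsph1 had a ratio of 1.61 (0.90 to 2.94). Hspa1a, Hspa1b and Dnajb1 kept a ratio of at least 1.5 under all 8 or 9 other processing choices that gave a value, and that of Hsph1 fell to 1.48 with doublets kept. The 17 early genes stood 1.35-fold higher in this class too, and their part in these ratios was not tested.

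The Igfbp6 cluster, the class richest in Cryab, also had 4 members called higher, against 5.14% of all its genes. Hspb1 had 111 UMIs (97.1 CPM) in AAV-Isl1 and 16 UMIs (23.8 CPM) in noise only, a ratio of 4.09 (2.41 to 7.40). Dnajb1 had 59 UMIs in AAV-Isl1 and 15 UMIs in noise only, a ratio of 2.32 (1.30 to 4.40). Hspa1a had a ratio of 1.73 (1.13 to 2.71) and Hspa1b one of 1.66 (0.94 to 3.09). Cryab itself had a ratio of 0.919 there. The calls of Hspa1a, Hspa1b and Dnajb1 were lost with doublets kept (1.41, 1.17 and 1.36), while Hspb1 had 2.33. The ratio of the early genes in this class was 1.27, and its part was not tested.

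Cryab was called higher in 5 classes, each with a noise-only level below the median of the 19 classes (534 CPM). Endothelial-like cells had 586 UMIs (385 CPM) in AAV-Isl1 and 284 UMIs (150 CPM) in noise only, a ratio of 2.57 (2.23 to 2.98), against 5.74% of all genes called higher. Osteoblast or osteocyte-like cells had 656 CPM in AAV-Isl1 and 313 CPM in noise only (2.09, 1.76 to 2.49), the Slc6a13 cluster 422 CPM in AAV-Isl1 and 242 CPM in noise only (1.75, 1.48 to 2.07), and fibrocyte or mesenchymal-like cells 454 CPM in AAV-Isl1 and 275 CPM in noise only (1.65, 1.53 to 1.78). Pericyte or smooth muscle-like cells had 622 CPM in AAV-Isl1 and 388 CPM in noise only (1.60, 1.42 to 1.80). With no doublets removed, the ratio was 1.37 in endothelial-like, 1.44 in osteoblast or osteocyte-like, 1.30 in fibrocyte or mesenchymal-like and 1.18 in pericyte or smooth muscle-like cells, so that of these calls the one in the Slc6a13 cluster (1.92) remained. At the threshold of the noise-only library, applied to both, doublets made up 3.98% of the AAV-Isl1 cells that passed the filters and 6.50% of the noise-only ones. At its own threshold the AAV-Isl1 library had none. Among the classes with much Cryab the ratio was 0.951 in Schwann or satellite glia-like cells, 0.862 in stria marginal cell-like cells and 0.746 in the Vmo1 cluster. Other classes above the median went the other way. Cochlear non-sensory epithelium-like cells (868 CPM in noise only) had a ratio of 1.49, and that of the Fxyd2 cluster was also above 1. Over the 19 classes the Cryab ratio was above 1 in 12 and below 1 in 7.

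Hspb1 was called higher where it is scarce as well. Schwann or satellite glia-like cells had 186 UMIs (63.0 CPM) in AAV-Isl1 and 147 UMIs (29.8 CPM) in noise only, a ratio of 2.11 (1.69 to 2.64), against 3.73% of all genes. Stria intermediate cell-like cells had 110 CPM in AAV-Isl1 and 65.4 CPM in noise only, a ratio of 1.68 (1.37 to 2.06), against 4.43% of all genes, and Hsph1 was called there too (1.58, 0.91 to 2.80). In osteoblast or osteocyte-like cells Hspb1 was called lower, with 568 CPM in AAV-Isl1 and 967 CPM in noise only, a ratio of 0.587 (0.51 to 0.67). In cells with at least 1000 UMIs that ratio was 0.901. Under every alternative the calls of Hspb1 in Schwann or satellite glia-like cells (lowest 1.78) and in the Igfbp6 cluster (lowest 2.22) were kept, and in stria intermediate cell-like cells the lowest ratio was 1.49. The noise-only levels of the first 2 classes were among the lowest of any class. The lowest were 44.4 CPM in AAV-Isl1 (neuron-like cells) and 11.9 CPM in noise only (hair cell-like cells). The part of free RNA in these Hspb1 ratios was not tested.

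The remaining calls of inducible genes were scattered. Osteoblast or osteocyte-like cells had Hspa1a (228 CPM in AAV-Isl1, 143 CPM in noise only, ratio 1.59) and Hspa1b (ratio 1.52) called higher, against 7.02% of all genes called higher and 5.07% lower. Hspa1b had a ratio of 1.59 in fibrocyte or mesenchymal-like cells (5.73% of all genes called higher), and Dnajb1 one of 1.77 in the Prg4 cluster (3.67%). Hsp90aa1 had 684 CPM in AAV-Isl1 T or NK cell-like cells and 426 CPM in noise-only ones, a ratio of 1.61 (1.20 to 2.19), in a class with 13.7% of all genes called higher. In the Slc6a13 cluster Hspa1b (192 CPM in AAV-Isl1 and 297 CPM in noise only, ratio 0.645) and Hsph1 (41.4 CPM in AAV-Isl1 and 78.4 CPM in noise only, ratio 0.527) were called lower. There 9.5% of all genes were called higher and 4.07% lower. Hsph1 was also called lower in pericyte or smooth muscle-like cells (0.650, 0.42 to 0.99), where 6.32% of genes were called higher and 4.43% lower. Of these scattered calls, that of Dnajb1 in the Prg4 cluster kept at least 1.5-fold under all 10 alternatives, and each of the others lost it under at least 1. Hspa1a in osteoblast or osteocyte-like cells and Hspa1b in fibrocyte or mesenchymal-like cells had 1.14 and 1.32 with coarser clusters, and Hspa1b in the Slc6a13 cluster had 0.839 after thinning to 1000 UMIs.

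**Figure D5:**
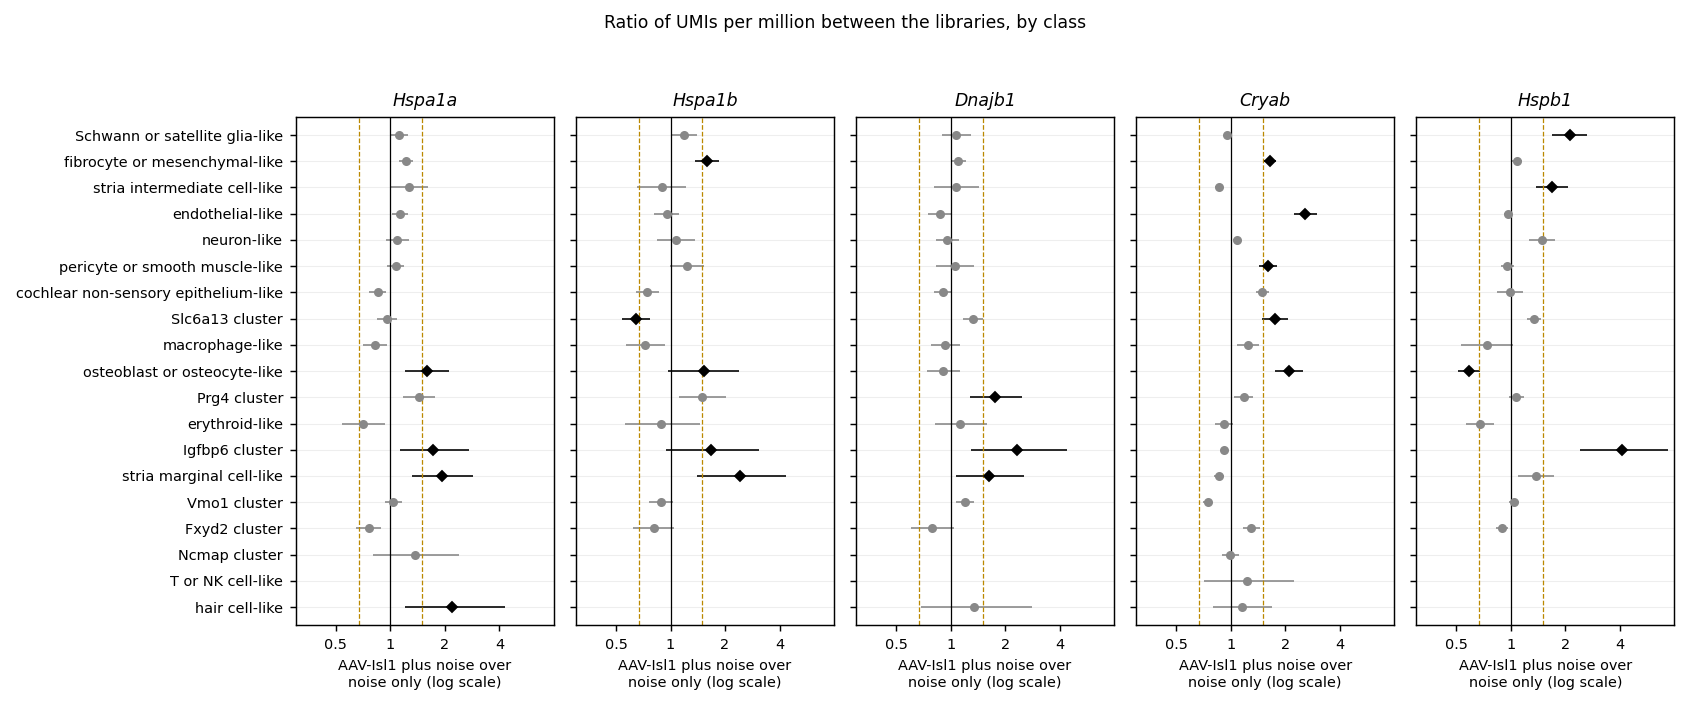
Ratio of CPM, AAV-Isl1 over noise only (log axis), for 5 of the genes in each class with at least 50 UMIs, with 95% intervals that cover counting error only. Black diamonds are past 1.5-fold (dashed lines), and Hspb1 shows both the highest, 4.09 in the Igfbp6 cluster, and the lowest ratio, 0.587 in osteoblast or osteocyte-like cells.

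Hair cell-like cells carried all 17 hair cell markers in both libraries and had Isl1 at 557 CPM in AAV-Isl1 and 47.5 CPM in noise only. Their abundant chaperones hardly differed, with ratios of 0.960 for Hsp90aa1, 0.888 for Hsph1, 1.01 for Hsp90ab1 and 1.06 for Hspa8. Cryab, scarce in these cells, had a ratio of 1.15. Cryab plus Hspb1 had one of 1.55 (1.11 to 2.22), from 161 UMIs in AAV-Isl1 and 44 UMIs in noise only. Hspa1a was called higher, with 67 UMIs (169 CPM) in AAV-Isl1 and 13 UMIs (77.2 CPM) in noise only, a ratio of 2.19 (1.20 to 4.32), against 7.31% of all genes. The ratio was 1.64 without the 5 cells of each library that held the most UMIs of all 10 members together. It was 1.26 with doublets kept and 0.969 with stricter limits on genes and mitochondrial UMIs. Hspa1b had 33 UMIs in AAV-Isl1 and 2 UMIs in noise only (ratio 7.00, 1.79 to 60.3), and Hspb1 had 47 UMIs in AAV-Isl1 and 2 UMIs in noise only (ratio 9.98, 2.61 to 84.8), both below the limit of 50 UMIs. Of the 47 Hspb1 UMIs, 31 lay in 5 cells. The early genes stood 1.32-fold higher in these cells, and their part was not tested.

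The cochlear non-sensory epithelium, whose markers include those of supporting cells, had no member called. Hspa1a had a ratio of 0.850 and Hspa1b one of 0.745. Dnajb1 stood at 0.905. Cryab, with 1295 CPM in AAV-Isl1 and 868 CPM in noise only, had a ratio of 1.49, and Bag3 one of 0.671, both just short of a call. In neuron-like cells, the most deeply sequenced class, the inducible sum had a ratio of 1.00, and Hsp90aa1 was alike in both libraries.

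Shares of cells with a UMI were compared at an equal depth, by drawing 1000 UMIs from every cell that had as many. Cryab was seen in 97.6% of AAV-Isl1 and 97.0% of noise-only cells of the Igfbp6 cluster, and in 90.1% of AAV-Isl1 and 92.3% of noise-only Schwann or satellite glia-like cells. This left out 130 AAV-Isl1 and 29 noise-only cells of the Igfbp6 cluster, and 3427 AAV-Isl1 and 5198 noise-only Schwann or satellite glia-like cells. T or NK cell-like cells had 8.60% (3.79 to 16.2, exact binomial) in AAV-Isl1 and 10.0% (3.76 to 20.5) in noise only. These shares serve as a low reference for what free RNA may give in cells of like depth. The class was picked because Cryab was lowest there in these same data, so other classes tend to stand above it by that choice. Endothelial-like cells had 26.5% (23.1 to 30.1) in AAV-Isl1, above the intervals of T or NK cell-like cells, and 10.2% (8.16 to 12.6) in noise only, within them. The part of free RNA in either endothelial share was not tested. At full depth, endothelial-like cells had 24.3% in AAV-Isl1 (median 1031 UMIs) and 16.3% in noise only (median 1284 UMIs), and T or NK cell-like cells had 13.2% in AAV-Isl1 (median 735 UMIs) and 11.3% in noise only (median 1006 UMIs). Hspa1a was seen at the equal depth in 38.0% of AAV-Isl1 and 33.8% of noise-only cells of the Vmo1 cluster, and in 4.21% of AAV-Isl1 and 3.03% of noise-only neuron-like cells. At full depth these shares were 50.3% in AAV-Isl1 and 45.6% in noise only for the Vmo1 cluster, and 18.6% in AAV-Isl1 and 22.6% in noise only for neuron-like cells. T or NK cell-like cells, the class lowest in Hspa1a, had 4.30% (1.18 to 10.6) in AAV-Isl1 and 0 of 60 cells (upper limit 5.96%) in noise only at the equal depth. Neuron-like cells were far deeper, with a median of 6537 UMIs in AAV-Isl1 and 10258 UMIs in noise only, so the share in T or NK cell-like cells sets no bound on free RNA in them, and whether their Hspa1a is their own was not tested.

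Few other genes of the heat shock and folding network were called over all kept cells, where 8.24% of all genes were. Of 9 measured heat shock factors and regulators none was called. Hsbp1, a binding protein of Hsf1, had 243 CPM in each library, and Vcp, a segregase of ubiquitinated proteins, 176 CPM in AAV-Isl1 and 175 CPM in noise only. None of 13 other J-domain genes, 24 co-chaperones, 14 subunits of the cytosolic chaperonin and prefoldin, 10 mitochondrial and 19 endoplasmic reticulum genes and 9 ubiquitin and autophagy genes was called either. For each list on its own, 0 calls is near the share of all genes. Among them Dnaja1, a partner of Hspa8, had 369 CPM in AAV-Isl1 and 379 CPM in noise only, the mitochondrial Hspe1 352 CPM in AAV-Isl1 and 324 CPM in noise only, the endoplasmic reticulum Hsp70 Hspa5 359 CPM in AAV-Isl1 and 376 CPM in noise only, and the polyubiquitin gene Ubb 1986 CPM in AAV-Isl1 and 2161 CPM in noise only. The exceptions, named after their values were seen, were Hspa12b (ratio 0.521, 0.418 to 0.649) and Hspa1l (0.596, 0.322 to 1.08) among 8 other Hsp70 genes and Hspb3 (1.98, 1.31 to 3.05) among 6 measured small heat shock genes. The interval of Hspa1l, from 20 UMIs in AAV-Isl1 and 31 UMIs in noise only, held 1. The 17 early genes had a median log2 ratio of -0.42, with Ier3 called lower (0.662).

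Pair by pair over the 19 classes, 8 of 95 pairs of heat shock factors and regulators were called higher and 1 lower, and 6 of 352 co-chaperone pairs higher and 8 lower. Of 87 pairs of other Hsp70 and Hsp110 genes, 9 (10.3%) were called higher and 8 (9.20%) lower. For the endoplasmic reticulum list it was 5 higher and 7 lower of 311, and for the early genes 25 higher and 14 lower of 303. The shares are to be read against the 6.3% and 3.45% over all genes.

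Depth per cell went with the pooled ratio of the inducible Hsp70 genes. For Hspa1a it was 1.10 in cells with under 1000 UMIs, 0.877 from 1000 UMIs to under 3000, and 0.670 from 3000 UMIs. For Hspa1b it was 1.12, 0.872 and 0.598 in the same order. By mitochondrial share the ratio of Hspa1a was 0.785 up to 5%, 1.06 above 5 up to 10% and 1.06 above 10 up to 20%. Cell classes differ in both measures, and the part of either in the ratios was not tested. Markers of erythroid cells were higher in AAV-Isl1 in 14 of the 18 other classes, with 448 CPM in AAV-Isl1 and 170 CPM in noise only in endothelial-like cells, and their part was not tested.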

How the data were processed

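Both deposited matrices hold raw counts of UMIs per gene and barcode, made by the authors with the 10x Genomics 3′ v3.1 kit per the labels' protocols, and with Cell Ranger 5.0, STAR and Seurat 3.2.2 on mm10 (GRCm38) per the submitters' processing notes. The file headers name Cell Ranger 5.0.1. The lowest barcode held 500 UMIs. Total counts were 40268563 UMIs (AAV-Isl1 plus noise) and 38330528 UMIs (noise only). The members, classes and lists were chosen with earlier results of these data known.

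The filters asked for 300 genes or more and for mitochondrial UMIs of 20% or less, which 22672 AAV-Isl1 plus noise and 19953 noise-only cells passed. Scrublet (expected rate 0.06) found no doublets in the AAV-Isl1 plus noise library at its own threshold, so that of the noise-only library (0.194) was applied to both, which removed 903 AAV-Isl1 plus noise and 1296 noise-only cells. The libraries were clustered together (Python 3.11.15, scanpy 1.11.5, scipy 1.17.1, leidenalg 0.10.2) on 3118 variable genes without the chaperone and stress lists, with 50 components, 15 neighbours and Leiden resolution 1, without batch correction. A cluster was named from at least 3 fixed markers that stood 4-fold above other cells and were seen in 10% of its cells, with 1 among its 10 leading genes. Classes with at least 100 cells per library and the hair cell-like class were compared.

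For each class and library, the UMIs of a gene were added up and set over all UMIs of that class. Levels have exact Poisson, ratios exact conditional binomial and shares exact Clopper-Pearson intervals, all at 95%, and cover counting error only. No test was made between groups of 1 library. The members were named throughout, 2 to 4 genes with the most UMIs could be named of each other list, and the 5 genes nearest to Hspa1b and Cryab were taken among genes with at least 500 UMIs. The summing and calling steps were tested on simulated data. Promoters came from RefSeq (GRCm38.p6). The alternatives changed the filters, doublet removal, clustering, depth, scaling, cells and class shares.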

Additional observations from a re-analysis of the deposited data

Results flagged for a closer look

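For 2 members, classes were called in opposite directions with intervals that left out 1 on both sides. In neither case was the difference tested, since each class has 1 library per group. Without the 1.5-fold limit this held for other members too, among them Cryab, with intervals below 1 in 5 classes and above 1 in 10. Hspa1b had a ratio of AAV-Isl1 plus noise over noise only of 2.42 in stria marginal cell-like cells and of 0.645 in the Slc6a13 cluster. Hspb1 had a ratio of 4.09 in the Igfbp6 cluster and of 0.587 in osteoblast or osteocyte-like cells. These pairs of classes were picked as those with the highest and the lowest called ratio of the gene, so counting error inflates their gap. Hsph1 was also called both ways, but the intervals of its higher calls, 1.61 in stria marginal cell-like cells and 1.58 in stria intermediate cell-like cells, held 1.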

How the results depend on the processing

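No paired analysis was possible because each group is 1 pooled library. Over all kept cells, 0 of the 10 members were called under every alternative run. The inducible sum, 1.06, ranged over the settings that moved it past its counting interval from 1.04 (at least 1000 UMIs, thinning to 1000 UMIs, or all 8 members other than Cryab and Hspb1 counted as inducible) to 1.07 (scaling to a median of 0), with 1.03 at the noise-only class shares and 0.950 without Hsp90aa1, the last 2 chosen after seeing the data. Cryab plus Hspb1, 0.903, had 0.928 with stricter limits on genes and mitochondrial UMIs, 0.934 with at least 1000 UMIs, 0.962 after thinning, 0.915 with scaling to a median of 0 and 1.02 at the noise-only class shares. The cognate sum, 1.02, had 1.04 with stricter limits, 1.01 after thinning, 1.04 with scaling to a median of 0 and 1.00 at the noise-only class shares. At the noise-only class shares, the pooled ratios of Hspa1a, Hspa1b, Dnajb1, Cryab and Hspb1 also passed from below 1 to above it. Ratios at these shares have no interval. Of the 26 calls within classes, that of Hspa1a in hair cell-like cells changed direction, to 0.969 with the stricter limits; the cause was not tested. Of the same calls, 7 kept at least 1.5-fold under every alternative that gave a value, and 19 lost it under at least 1. Class levels rest on as few as 93 cells, and members with under 50 UMIs in a class gave no call.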
